A study of Homo sapiens with 2 samples.

Results

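C/D box small nucleolar RNAs (snoRNAs) that lie in the introns of other genes were examined among the contacts of DDX18, a nucleolar RNA helicase of the DEAD-box family. Peaks were taken when the deposited list named a SNORD gene and the peak lay within 150 nt of that gene's start site. SNORD3, SNORD13, SNORD14 and SNORD118, whose known roles include rRNA processing or acetylation, and the imprinted SNORD107 to SNORD109, SNORD115 and SNORD116 were left out, as were positions also called in SNHG1, GAS5, ZFAS1 or SNHG12, non-coding genes that carry many snoRNAs. This left 109 of 16095 peak positions, or 0.677% (exact 95% binomial interval 0.556 to 0.816), in 105 C/D box genes on 22 chromosomes. The choice used names and positions, not peak heights. SNORD64, called in the imprinted gene SNRPN, was not among the names left out and stayed in the set.

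The RNA came from H9, a line of human embryonic stem cells, here expressing 3XFlag-DDX18 and grown in normal culture on irradiated mouse embryonic fibroblast feeders. Cells were irradiated with 160 mJ/cm2 of ultraviolet light at 254 nm, the tagged protein was recovered on anti-FLAG beads, and the attached RNA was sequenced by iCLIP, which maps contact sites from the points where reverse transcription stops at the cross-link. The 2 samples form 1 group and share 1 peak list with 1 height per peak, so no spread between samples, no reads per sample and no test can be given. No input or untagged control was used here, and a peak height was not divided by the abundance of the RNA. Among genes with a peak were 8 of 10 markers of pluripotent cells (not POU5F1 and SOX2) and 6 of 10 fibroblast markers (not COL3A1, VIM, LUM and DCN). The share of all genes with a peak was not set beside these counts, so they do not identify the cells. How far feeder RNA entered the list was not tested.

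A C/D box snoRNA carries a C box near its 5' end and a D box near its 3' end, with less conserved copies of each, C' and D', between them. The guide sequence just upstream of D or D' pairs with a target RNA, and fibrillarin, held on the snoRNA with NOP56, NOP58 and SNU13, adds a methyl group to the 2'-hydroxyl of a chosen target base. Most human C/D box snoRNAs are cut out of the excised introns of genes for ribosomal proteins, translation factors and nucleolar proteins, so their supply is tied to transcription and splicing of the host. Many such hosts begin transcription at a C followed by a run of pyrimidines, known as a 5' terminal oligopyrimidine start.

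The label of the set held for most positions. A protein-coding gene was called at 92 of the 109 positions, and 54 such hosts were named. At 12 positions the only host called was a long non-coding RNA gene (SNHG5, SNHG6, SNHG16, SNHG18 or SNHG29), and at 2, SNORD88A and SNORD88C, it was the transcribed pseudogene C19orf48P. No host was called at SNORD93, SNORD60 and SNORD104. At 13 positions several host names were called, such as RPL17 and the read-through gene RPL17-C18orf32, and the position was counted once.

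The promoter windows of hosts are shown because the snoRNA is made from the host's transcript and the first bases mark its class of promoter. Sequences of the snoRNAs themselves were not used here. Of the 54 protein-coding hosts, 43 had an entry among the RefSeq start sites (GRCh38.p14) and 34 had exactly 1, and the 8 of these with the highest summed peak height follow. Each is 30 bases on the strand of the host, with 15 bases before the annotated start, and capitals mark the unbroken run of C and T from the first transcribed base.
RABGGTB: ctgaccctgctctctCCTTTCCCTgttaga
RPL13A: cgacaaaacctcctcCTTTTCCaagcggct
RPL7A: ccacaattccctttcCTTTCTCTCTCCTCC
RPL17: cctctttccctaagcagcctgaggtgagtg
EIF4A1: aggcgggcactccgcCCTagtttctaagga
RPS12: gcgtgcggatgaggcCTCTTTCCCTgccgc
RPL4: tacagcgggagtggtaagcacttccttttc
RPS3: gcccgcgagccacttCCTTTCCTTTCagcg

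A start of C followed by 4 more pyrimidines, searched only at the annotated first base and on the strand of the gene, was present in 5 of these 8 windows: RABGGTB, RPL13A, RPL7A, RPS12 and RPS3. Of the 8 hosts 6 are ribosomal protein genes, and they were picked for height, so the count does not stand for all hosts. At any of the listed start sites of a gene, such a start was found in 16 of the 43 hosts with an entry, and in 8 of the 32 that are not ribosomal protein genes. It was found in 46 of 67 ribosomal protein genes and in 988 of 15843 protein-coding genes in general (6.24%, interval 5.86 to 6.62). The run of RPL7A filled all 15 transcribed bases of its window. EIF4A1 stopped after 3 pyrimidines, and the annotated starts of RPL17 and RPL4 began with another base, which says only that these letters are not at the annotated start. Fewer than 80% of the hosts had an entry, so a comparison of all hosts with other genes is void.

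Peaks at the C/D box snoRNAs were high for this list. Their median height was 126 (exact 95% interval of the median 82 to 177, n = 109 positions), with quartiles of 60 and 269 and a range of 8 to 3169. H/ACA box snoRNAs, the guides of pseudouridylation, found with the same distance limit, had a median of 73 (46 to 95, n = 102) and a range of 6 to 812. The 21 C/D box positions of SNHG1, GAS5, ZFAS1 and SNHG12 had a median of 262 (224 to 406) and a range of 121 to 2710. Height at the 109 positions was thus spread more widely toward low values than at those 4 hosts. The 109 include 12 positions in other long non-coding hosts, with a median of 80.5 and a range of 15 to 420. All peaks of the list had a median of 8, and 108 of the 109 positions were above it. The list holds only significant peaks, each with an expected height for its gene, so the lowest height that could enter may differ between genes. How far this raised the heights at snoRNAs was not tested. Of the 264 peaks in the list with a height of 100 or more, 61 were at these snoRNAs. The heights summed to 24689, or 3.78% of the height in the whole list.

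The sum leaned on a few RNAs. SNORD97, in an intron of EIF4G2 (a translation factor related to eIF4G), had a peak of 3169 at chr11:10823042-10823042 (hg19, minus strand), which was 12.8% of the sum. The next 4 were SNORD58B in the ribosomal protein gene RPL17 with 881, SNORD45B in RABGGTB (a subunit of the enzyme that attaches geranylgeranyl groups to Rab proteins) with 833, SNORD42B in RPL23A with 765 and SNORD36C in RPL7A with 742. Together these 5 positions held 6390, or 25.9% of the sum. SNORD93 with 701, SNORD34 in RPL13A with 637, SNORD45A in RABGGTB with 618 and the higher peak of SNORD10 in EIF4A1 with 607 followed. SNORD35A in RPL13A had 595, SNORD101 in RPS12 had 569 and SNORD2 in EIF4A2 had 515. In all, 13 positions reached 500 or more. SNORD20 in NCL, the gene of nucleolin, had 469, and SNORD60 had 444. Of the 15 genes with the highest peaks, 7 lay in ribosomal protein genes.

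At the other end, SNORD121A in UBAP2 had a height of 8, SNORD126 in CCNB1IP1 had 13, SNORD123 in SNHG18 had 15, and SNORD69 in GNL3 and SNORD51 in EEF1B2 had 17 each. A position called in both the snoRNA and its host has a deposited p-value for each, and the smallest was 0.001 or lower at 108 positions and 0.0473 at SNORD51, which was called only in the host. The largest was 0.001 or lower at 102 positions, and it was 0.0406 at SNORD16 and 0.028 at SNORD5, both within the snoRNA. GNL3 and EEF1B2 encode a nucleolar GTPase and a translation elongation factor, so low peaks were not limited to hosts outside the translation machinery.

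**Figure D1:**
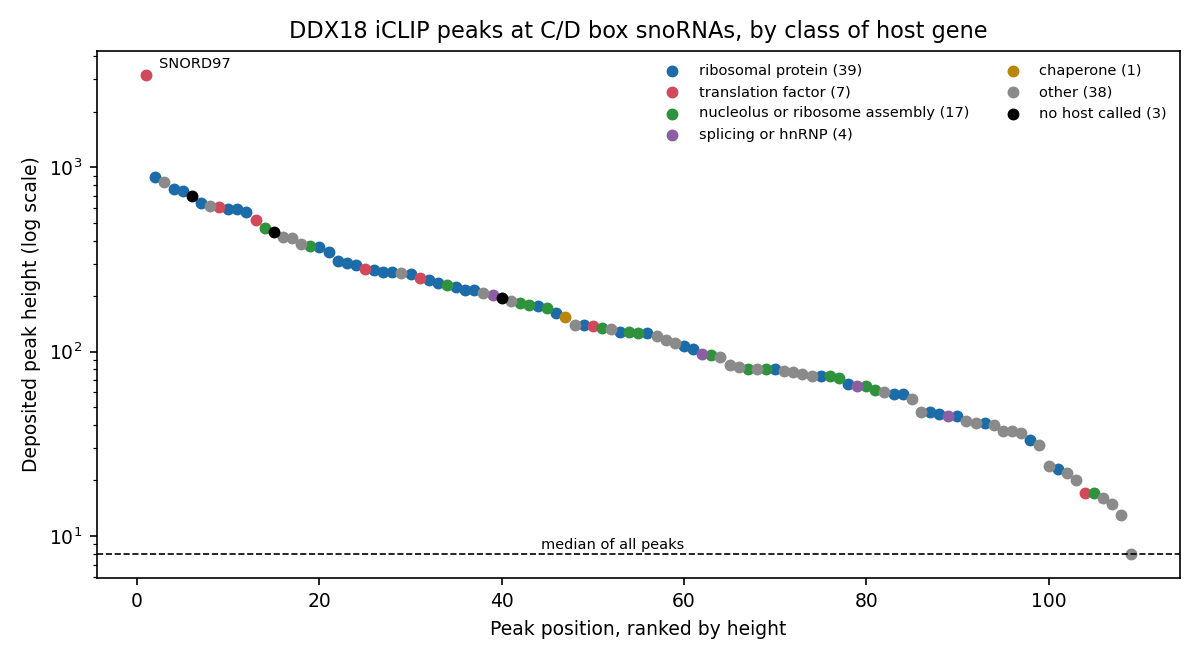
Deposited peak height (log scale) of the 109 positions, ranked from highest to lowest and coloured by class of host gene, with the number of positions of each class in the legend. SNORD97 at 3169 stands above the next position at 881, and 1 position lies on the dashed line at the median of all peaks, 8.

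Higher peaks tended to be narrower. A width of 1 nt was found at 60 of the 109 positions, whose median height was 175.5, while the wider ones had a median of 65. Only 13 positions were wider than 5 nt, none of them higher than 85. The widest was SNORD69 in GNL3 with 15 nt.

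The list gives each peak an expected height, for the gene in which it was called, and many positions were called both in the snoRNA and in its host. A total of 66 positions were called in the snoRNA itself, with a median height of 227 (range 65 to 3169). At these the height was a median of 1.96 times the expected height within the snoRNA (range 1.54 to 3.54), with SNORD97 at the top. The other 43 positions were called in the host but not in their own snoRNA, and had a median height of 46 (range 8 to 280). Among them, SNORD6 in TAF1D was also called in another snoRNA gene. Against the expected height in the host, the 106 positions with a called host stood a median of 69.0 times higher (range 5.31 to 871). These medians cover different sets of positions, and a snoRNA and its host differ in gene length, so the medians were not compared further. How the authors made the expected heights is not stated in the labels or the list.

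Peaks fell in the part of the snoRNA closer to its 3' end. Of the 106 positions with their centre inside the gene, 93 had the shorter distance to the 3' end (87.7%, interval 79.9 to 93.3). The distance to the 3' end had a median of 26.5 nt (quartiles 22 and 33.75, range 1 to 196), and 85 positions lay 15 to 39 nt from it (80.2%, 71.3 to 87.3). The D box stands close to the 3' end and its guide just upstream, but box positions were not mapped here. In the 21 positions of the left-out non-coding hosts, 16 lay closer to the 3' end (76.2%, 52.8 to 91.8), with a median distance of 29 nt. In H/ACA box snoRNAs 64 of 100 did (64.0%, 53.8 to 73.4), with the same median distance of 29 nt but quartiles of 18 and 98 nt.

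In nt, the median distance to the 3' end varied less with gene length than the median distance from the 5' end. In 17 positions in genes under 70 nt the medians were 39 nt from the 5' end and 24 nt from the 3' end. In 38 positions in genes of 70 to 79 nt they were 50.5 and 24 nt, and in 33 positions in genes of 80 to 99 nt they were 58 and 30 nt. In 18 positions in genes of 100 nt or more they were 66 and 35 nt. In this longest class the quartiles of the distance to the 3' end were 28.25 and 71.5 nt. As a fraction of the gene from the 5' end, the median place was 0.625, 0.676, 0.674 and 0.66 in the classes by rising length. A fixed distance from the 3' end and a fixed fraction of the gene were thus not told apart. Across the 106 positions Spearman's rho of height was -0.02 with gene length and -0.05 with the distance to the 3' end, as a description of positions that share 1 list.

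In 11 of the 13 positions closer to the 5' end the centre lay 34 to 41 nt from that end. This range was set after the values were seen. Being closer to the 5' end itself limits that distance, so the count is only a description. Of the 93 positions closer to the 3' end, 17 lay in the same range, among them SNORD58B, SNORD36C and SNORD34 at 39 nt each, so this place was not limited to the 13. SNORD17 in SNX5 (a sorting nexin), the longest gene of the set with 237 nt, had its peak of 207 at 40 nt from the 5' end, 196 nt short of its 3' end. SNORD15B in RPS3 had 348 at 39 nt in a gene of 146 nt. SNORD70, SNORD1B, SNORD65, SNORD23, SNORD68, SNORD67 and SNORD126 also lay in that range, as did the lower peak of SNORD10. SNORD15A, at 64 nt, and SNORD73A, at 26 nt, lay outside that range. The 13 positions had a median height of 133 (range 13 to 367), against 128 for the 93 positions closer to the 3' end.

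**Figure D2:**
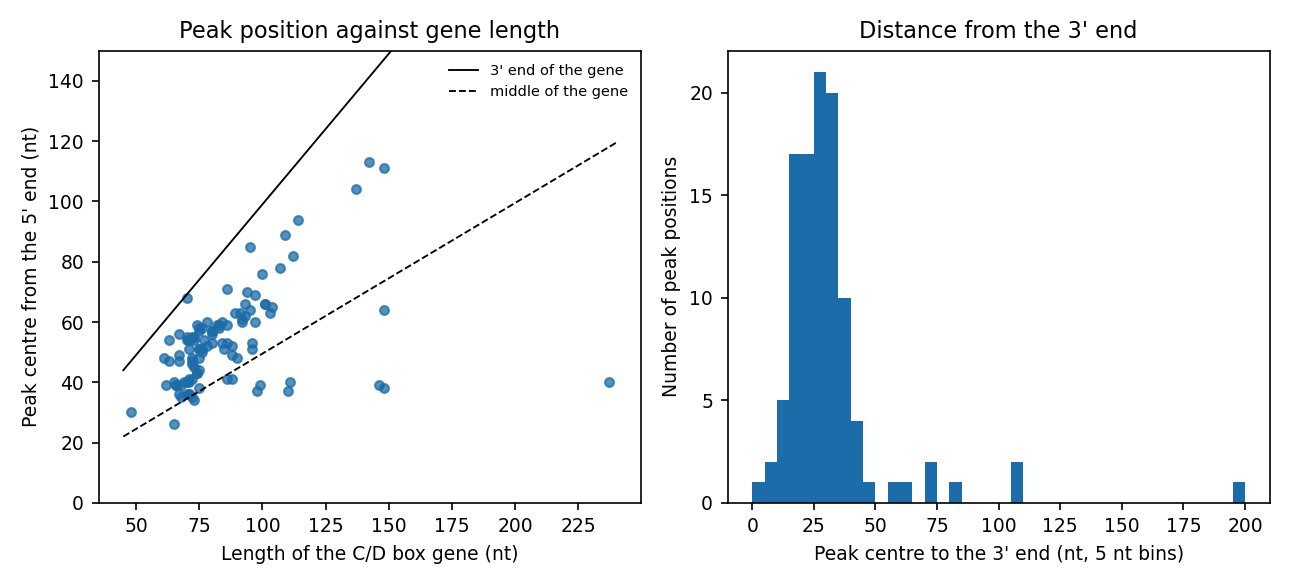
Left, distance of the peak centre from the 5' end (nt) against gene length (nt) for the 106 positions inside the gene, with lines for the 3' end and the middle of the gene. Right, the number of positions by distance to the 3' end in 5 nt bins, where 85 of 106 lie 15 to 39 nt from the 3' end.

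SNORD10 had a peak on each side of its middle. SNORD10 guides methylation of U6 snRNA and lies in EIF4A1, an RNA helicase of translation initiation. Its peaks were 607 at 111 nt and 280 at 38 nt from the 5' end of a gene of 148 nt. SNORD83A in RPL3 had 243 inside the gene and 23 at 89 nt upstream of it, and SNORD49A in SNHG29 had 188 inside, 40 at 142 nt upstream and 16 at 55 nt upstream. These were the only genes with several positions, and the 3 upstream peaks were lower than the peak inside the same gene.

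Guides of both ribosomal subunits carried peaks over nearly the whole range of heights. Guides of 18S rRNA, the RNA of the small subunit, had 39 positions with a median of 126 (interval 82 to 178) and a range of 23 to 833. Guides of 28S or 5.8S rRNA had 49 positions with a median of 153 (103 to 216) and a range of 8 to 881. The intervals overlapped widely. SNORD45B, SNORD42B and SNORD93 led the 18S guides and the upstream peak of SNORD83A was the lowest. SNORD58B, SNORD36C and SNORD34 led the 28S and 5.8S guides and SNORD121A was the lowest. SNORD32A, SNORD36A and SNORD68, which guide sites in both subunits, were counted with 18S.

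Guides with other targets were fewer. The 6 positions of U6 snRNA guides had a median of 77.5 (range 37 to 607), with both SNORD10 peaks, at 607 and 280, then SNORD8 in CHD8 at 78 and SNORD67 in CKAP5 the lowest at 37. The 7 positions with no known site in rRNA or snRNA had a median of 31 and the widest range, 13 to 3169. SNORD97, which is known to guide methylation of the elongator methionine tRNA, led them with 3169, SNORD101 had 569 and SNORD64 in SNRPN had 42, and SNORD126 was the lowest with 13. The others, SNORD124 in MED24 at 31, SNORD89 in RNF149 at 24 and SNORD123 at 15, were also below the lower quartile of the set. A further 8 positions, to which no target was assigned here, had a median of 76, with SNORD2 at 515, SNORD72 in RPL37 at 224, SNORD53 in WDR43 at 173 and SNORD125 in AP1B1 the lowest at 22.

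Most guides of the textbook lists had a peak. Of all 257 C/D box genes in the RefSeq table, 104 were in the set. The 257 may include genes left out by name or host, so the shares are not like for like. Whether the listed guides differ from other C/D box genes was not tested. Of 49 guides of 18S rRNA, 38 were in the set, 5 had a peak in one of the 4 left-out hosts, and 6 had none: SNORD19, SNORD32B, SNORD62A, SNORD62B, SNORD103A and SNORD103B. Of 69 guides of 28S or 5.8S rRNA, 47 were in the set, 15 were in the left-out hosts, and 7 had none, among them SNORD48, SNORD52, SNORD74, SNORD88B, SNORD96B and SNORD121B. Of 6 guides of U6, all but SNORD7 were in the set. Of 11 with no known site, 7 were in the set, 1 was in the left-out hosts, and SNORD86, SNORD112 and SNORD117 had none. Absence from the list says only that no significant peak was given, since depth is unknown and copies with a like sequence may share reads.

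Among positions with a named host, median heights were highest where the intron belonged to a gene of the translation machinery, although the intervals of neighbouring classes overlapped. The 39 positions in 17 ribosomal protein genes (RACK1 included) had a median of 216 (interval 107 to 276) and a range of 23 to 881. SNORD58B, SNORD42B and SNORD36C led them, and the upstream peak of SNORD83A was the lowest. The 7 positions in translation factor genes had a median of 280 and a range of 17 to 3169, with SNORD97, SNORD10 and SNORD2 the highest and SNORD51 the lowest. The 17 positions in 8 genes of the nucleolus or ribosome assembly had a median of 126 (74 to 178) and a range of 17 to 469, led by SNORD20 in NCL, SNORD92 in WDR43 (375) and SNORD11 in NOP58 (230), with SNORD69 the lowest.

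Hosts that the lists used here placed in no named class had a lower median. The 38 positions in all other hosts had a median of 76.5 (41 to 111) and a range of 8 to 833, led by SNORD45B and SNORD45A in RABGGTB and SNORD1A in SNHG16 (420), with SNORD121A the lowest. This group holds the 12 positions of long non-coding hosts and the 2 of C19orf48P. With protein-coding hosts only, its median was 57.5. PPAN (SNORD105B 140, SNORD105 41) and RBMX (SNORD61 80) were also counted here, because the lists did not place them in another class. Genes listed as splicing or hnRNP had 4 positions: SNORD111 and SNORD111B in SF3B3, a subunit of the U2 snRNP, with 203 and 65, SNORD127 in PRPF39 with 97, and SNORD119 in SNRPB with 45. The chaperone gene HSPA9 held 1 position, SNORD63 with 153. The 3 positions with no called host, SNORD93, SNORD60 and SNORD104, had 701, 444 and 195. The levels of the hosts and of the mature snoRNAs were not measured here, so more contact per snoRNA and more snoRNA cannot be told apart.

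**Figure D3:**
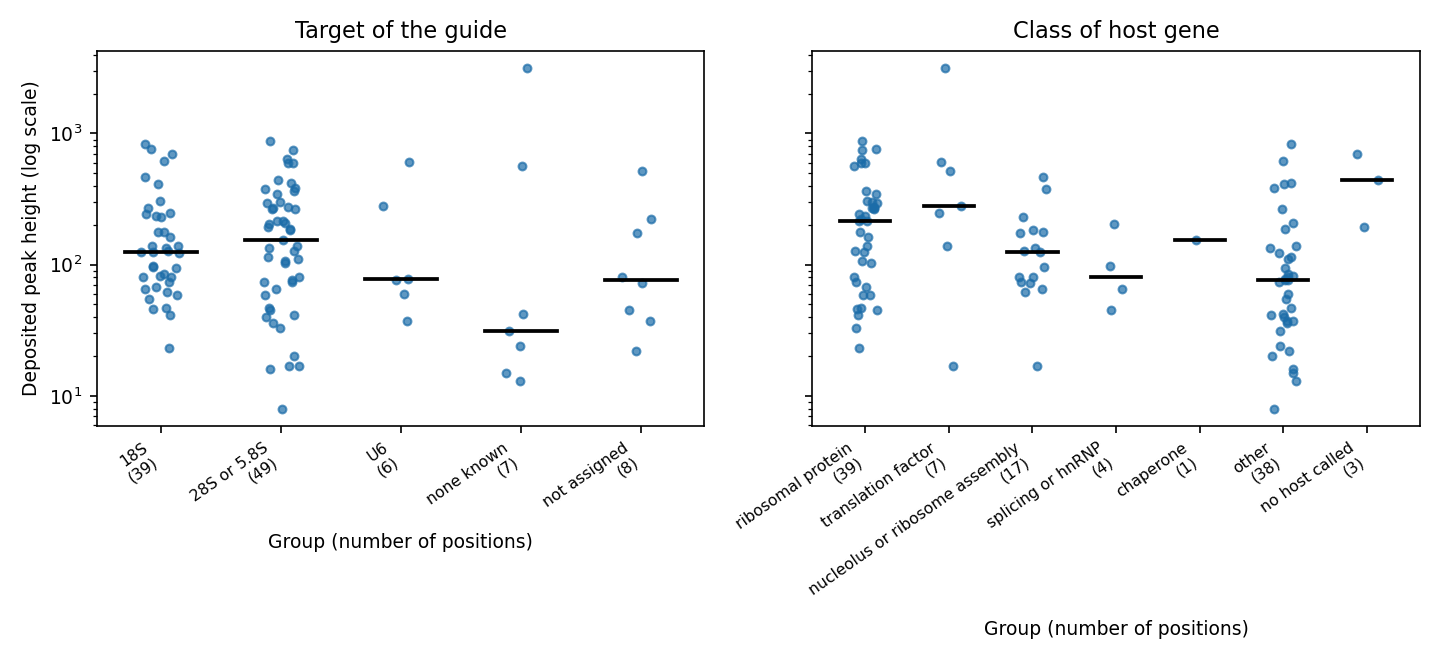
Deposited peak height (log scale) of each position by target of the guide (left) and class of host gene (right), with the number of positions under each group. Points are positions and bars are medians, which were 126 and 153 for 18S and for 28S or 5.8S guides, and 216 for ribosomal protein hosts against 76.5 for other hosts.

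Small nucleolar RNAs of the same host differed in height although they are spliced from the same transcript. A total of 26 hosts held 2 or more of the C/D box genes, 68 genes in all. The ratio of the highest to the lowest within a host had a median of 3.27 (range 1.04 to 13.0) and was over 3 in 14 hosts. Only genes with a peak entered this ratio, and some hosts hold further C/D box genes with none. RPL23A had the widest spread, with 765 at SNORD42B, 234 at SNORD4B, 74 at SNORD4A and 59 at SNORD42A. RPL7A had 742 at SNORD36C, 296 at SNORD24, 177 at SNORD36B and 128 at SNORD36A. RPL4 had 301 at SNORD18B, 216 at SNORD18C, 140 at SNORD16 and 59 at SNORD18A. RPL13A was more even, with 637 at SNORD34, 595 at SNORD35A, 308 at SNORD33 and 270 at SNORD32A, so its lowest snoRNA was above the median of the set.

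Hosts with 3 C/D box genes also differed in how far apart their snoRNAs stood. RPL17 had 881 at SNORD58B, 264 at SNORD58A and 103 at SNORD58C. RPL3 had 243 at SNORD83A, 126 at SNORD43 and 67 at SNORD83B. These ribosomal protein hosts each spread over 3-fold. RABGGTB had 833 at SNORD45B, 618 at SNORD45A and 411 at SNORD45C, all in the top 17 of the set. NOP58 had 230 at SNORD11, 178 at SNORD11B and 135 at SNORD70, and NOP56 had 126 at SNORD110, 65 at SNORD57 and 62 at SNORD56. NOP56 and NOP58 encode core proteins of the C/D box particle itself. Of the non-coding hosts, SNHG16 had 420 at SNORD1A, 133 at SNORD1B and 74 at SNORD1C, and SNHG29 had 188 at SNORD49A, 85 at SNORD65 and 47 at SNORD49B.

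Pairs that stood nearly level were SNORD15A and SNORD15B in RPS3 (367 and 348), SNORD6 and SNORD5 in TAF1D (80 and 74), and SNORD88C and SNORD88A in C19orf48P (115 and 111). In NCL, by contrast, SNORD20 had 469 and SNORD82 had 80, and in SNHG5 SNORD50A had 383 and SNORD50B had 76. SNORD88B, a further C/D box gene of C19orf48P, had no peak in the set.

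**Figure D4:**
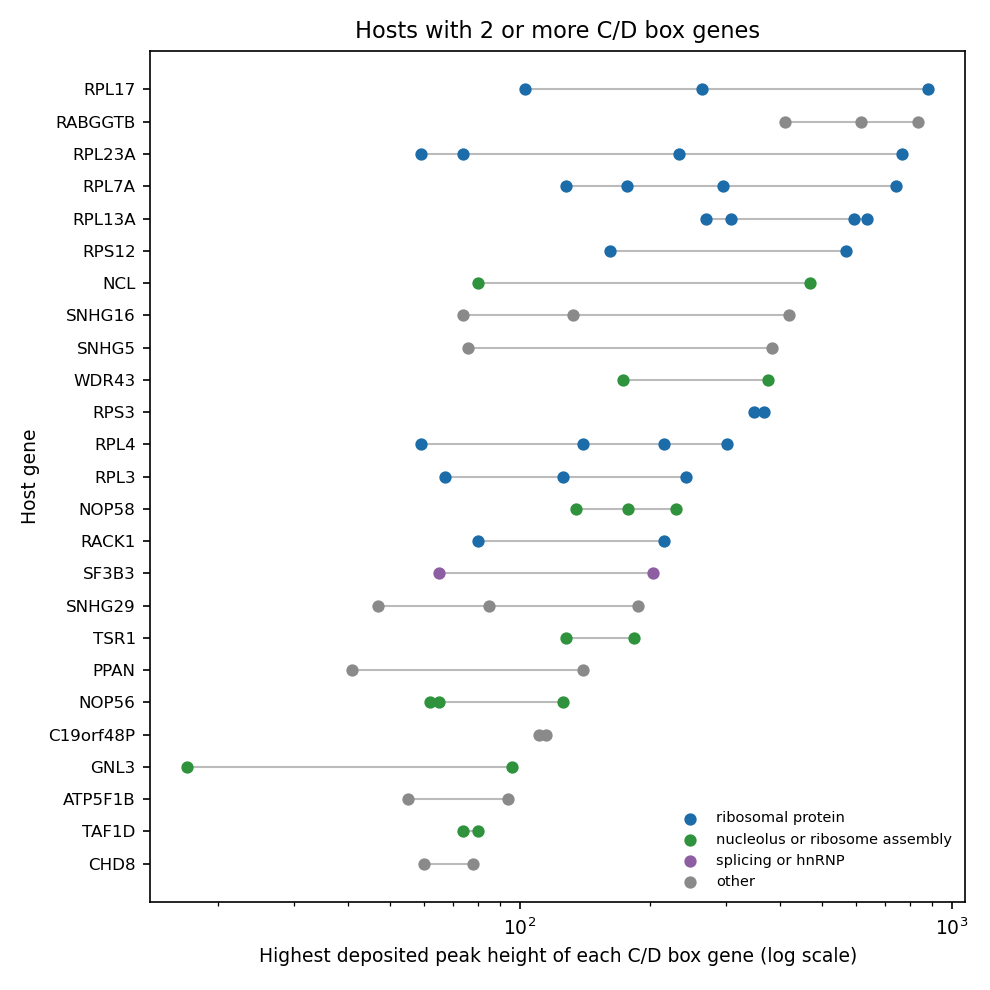
Highest deposited peak height (log scale) of each C/D box gene in 25 of the 26 hosts that hold at least 2 of them, 1 row per host, coloured by class of host. A grey line joins the snoRNAs of a host, from the widest spread, RPL23A with 59 to 765, to nearly level pairs such as RPS3 with 348 and 367.

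Members of a snoRNA family share a number and much of their sequence. In 18 of 19 families all members lay in 1 host, so most of these ratios repeat pairs already given by host. In the 19 families with 43 genes the ratio of highest to lowest had a median of 3.16 and reached 13.0. The least even was SNORD42 at 765 and 59, with peaks at 49 and 48 nt. Place was kept to within 5 nt from the 5' end in 7 families and differed by over 10 nt in 7, up to 25 nt between SNORD15A and SNORD15B. The treatment of reads that match several copies is not stated, so heights of near-identical copies are uncertain.

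Outside its snoRNA, the host transcript often carried no peak. Of the 54 protein-coding hosts, 27 had 111 peaks outside the small RNAs named in the deposited annotation and 27 had none. In exons, 17 hosts had peaks, 49 in all. The share of all protein-coding genes with a peak was not computed, so these counts do not set the hosts apart from other genes. Summed over the 54 hosts, height was 21381 at the C/D box snoRNAs and 2602 elsewhere. In the hosts with both, the highest snoRNA peak was a median of 5.46 times the highest peak elsewhere (range 0.141 to 14.5), and it was the higher in 22 of 27. SF3B3 had the largest ratio, 203 at SNORD111 and 14 in an exon, while RPL4 had 301 and 21.

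EIF4G2, RABGGTB, RPL13A, RPL7A and RPL17 had the highest summed snoRNA height, 3169, 1862, 1810, 1343 and 1248, and none had a peak elsewhere. SNRPN, with 42 at SNORD64, had the most peaks elsewhere, 33 of the 111 in protein-coding hosts, with a highest of 19 in the 5' UTR. EEF2, the translocation factor of elongation, had 138 at SNORD37 and 15 peaks elsewhere, with a highest of 127 in the 3' UTR. RACK1 had 6 (highest 28), HSPA9 had 5 (28) and SF3B3 had 4 (14). Only in EEF2 among these did a peak elsewhere come near the height at the snoRNA.

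Whether a host had a peak elsewhere moved with the expected height that the authors gave it. The expected height had a median of 0.68 (range 0.05 to 6.42) in the 27 hosts with a peak elsewhere and 4.31 (0.09 to 18.8) in the 27 without. The highest snoRNA peak had a median of 80 in hosts with a peak elsewhere and 207 in those without. EEF2 had the highest expected height with a peak elsewhere, 6.42, and its lowest such peak was 30, or 4.67 times that. None of the 11 hosts with an expected height above 7 had a peak elsewhere. The part of the expected height in the absence of peaks from the rest of these hosts was not tested.

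**Figure D5:**
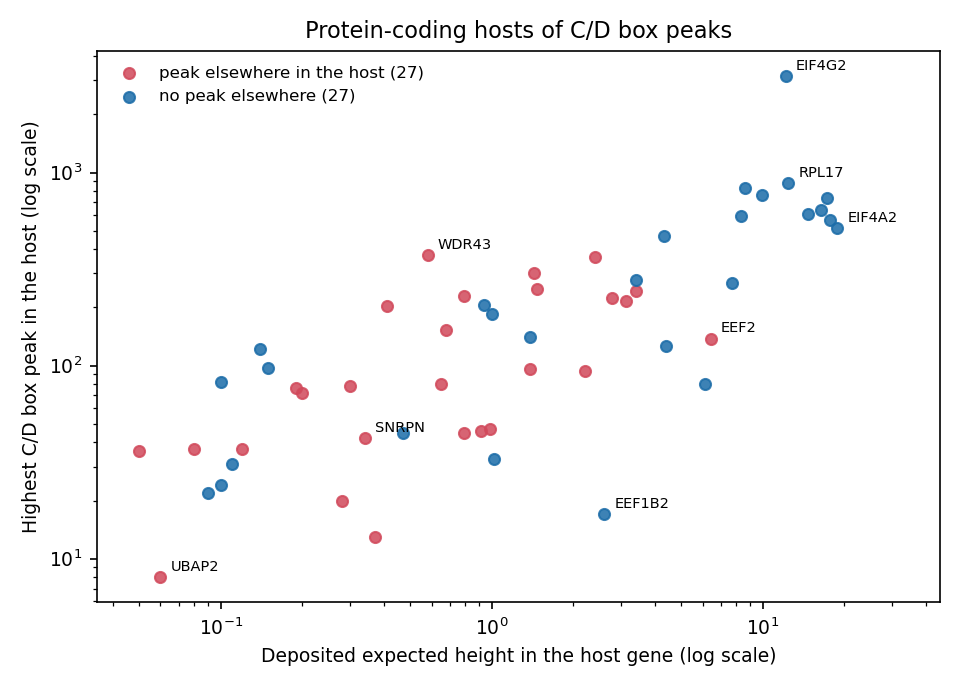
Highest C/D box peak in each of the 54 protein-coding hosts against the expected height deposited for that host, both on log scales, with hosts that have a peak elsewhere in the transcript in red and those that have none in blue. The 11 hosts with an expected height above 7, at the right, have no peak elsewhere.

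In 5 hosts a peak elsewhere was higher than the C/D box peak. CCNB1IP1 had 13 at SNORD126 and 92 elsewhere in an intron, TNPO2 had 20 at SNORD41 and 65 elsewhere in an intron, and UBAP2 had 8 at SNORD121A and 43 elsewhere. GNL3 had 96 at SNORD19B and 108 elsewhere, and RPS20 had 47 at SNORD54 and 58 elsewhere. The RefSeq gene table, which is of another build, lists further small RNA genes in 4 of these hosts. They are SNORA79B in CCNB1IP1, SNORD135 in TNPO2, SNORD121B in UBAP2, and SNORD136, SNORD19 and SNORD19C in GNL3. Whether the deposited annotation held these genes was not checked. The RefSeq table also lists SNORD53B in WDR43, where a peak of 111 lay outside SNORD92 and SNORD53. It lists SNORD70B in NOP58 too, where a peak of 42 lay outside the snoRNAs of the set. Positions were not compared between builds, so whether these peaks lie on those genes was not tested. In all, 11 protein-coding hosts hold 15 C/D box genes of that table with no peak in the set, such as SNORD86 in NOP56.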

How the data were processed

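Peaks came from 1 list that the authors deposited, annotated on hg19 with annotatePeaks.pl of HOMER per the file headers. The submitters' processing notes name FastQC 0.10.1 and BWA. The peak caller and the handling of duplicate and multiply matching reads are not given in these sources. Peak height is a signal in whole numbers that the authors deposited with no scaling. The expected height is a signal too, and the p-value is the authors' deposited one, from 1e-100 to 0.05. The list pools 2 samples, and the labels do not say whether they were separate cultures.

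The 17163 entries were reduced to 16095 positions. Distance to the start site runs in genome direction in the list and was turned to the strand of the gene. Gene lengths, names and biotypes came from the RefSeq table (GRCh38.p14), which held 104 of the 105 genes. A median carries an exact 95% interval from order statistics, and a share an exact binomial (Clopper-Pearson) interval, both for counting error only. Targets and host classes are textbook lists. Members and lists were chosen with earlier results of these data known. Genes named are the 15 highest, the 5 lowest, hosts with 3 or more C/D box genes, genes with several peaks, the extremes of each group, and hosts ranked by summed height or by peaks elsewhere. Results of some genes that this rule would name are not reported here. Other genes named were chosen after their values were seen. With 1 group and no control there was no test. Python 3.11.15, pandas 2.3.3 and SciPy 1.17.1 were used, and scripts were tested on simulated data.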

Additional observations from a re-analysis of the deposited data

How the results depend on the processing

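Of 49 alternative values, 46 stayed close to the reported one (counts within 1.5 times, medians and shares within their interval). Some of them could not differ, because the changed limit removed no position from the group, so the count is no measure of robustness. The median height ran from 100 to 128 and the share of positions closer to the 3' end from 87.4% to 87.9% over other distance limits, p-value and height limits, and protein-coding hosts only. Keeping positions with the deposited p-value at its lower limit left 50 of 109, with a median of 100. Dividing heights by the host's expected height gave a median of 69.0, on another scale. Counting only exonic peaks left 17 hosts with a peak elsewhere, not 27. Leaving out a sample was not possible, because the list has 1 height per peak. No paired analysis was possible because the samples form 1 group. Depth is unknown, so snoRNAs without a peak may have been contacted below detection.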
